A study of Mus musculus with 2 samples.

Results

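The genes described here encode the nuclear subunits and assembly factors of the oxidative phosphorylation machinery of mitochondria. They were taken by name, as all genes whose symbol starts with Nduf, Uqcr, Cox4i, Cox5, Cox6, Cox7, Cox8, Atp5 or Sdh, without pseudogenes. The rule used no measured difference. It matched 97 of the 32285 genes in the deposited matrices, and the 93 with at least 50 unique molecular identifiers (UMIs, each counting 1 captured RNA molecule) over both matrices are the members. The 4 genes below that minimum were isoforms of complex IV or of a related subunit, namely Cox8c with 0 UMIs, Cox8b and Ndufa4l2 with 1 each and Cox7b2 with 9. Just inside it were Cox7a1 with 172 and Cox4i2 with 545. Of the members, 91 had at least 1000 UMIs.

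Oxidative phosphorylation passes electrons from NADH and succinate through complexes I and II to complex III, cytochrome c and complex IV, where oxygen is reduced, and complex V uses the resulting proton gradient to make ATP. Complexes I, II and III carry electrons on iron-sulfur clusters, and complexes II, III and IV hold haem, so the chain is a major user of cellular iron. Most subunits are encoded in the nucleus, whereas a small set of subunits of complexes I, III, IV and V is encoded by mitochondrial DNA. Haematopoietic stem cells are known for relying less on respiration than the progenitors they give rise to. Sorted by the complex a symbol names, with Ndufa4 placed in complex IV, the members comprised 44 genes of complex I, 8 of complex II, 8 of complex III, 16 of complex IV and 17 of complex V. By role they comprised 24 core subunits, 52 accessory subunits, 12 assembly factors, 4 isoforms of restricted tissue distribution and 1 factor of supercomplex formation, and 9 of the core subunits bind an iron-sulfur cluster or haem.

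The study asked what long-term iron chelation does to blood stem and progenitor cells as mice age. Mice of about 6 months received deferoxamine, an iron chelator, at a dose of 50 mg/kg, or HBSS as its vehicle, in courses of 7 daily doses that came round every 4 weeks over 13 months. Bone marrow cells without lineage markers and with Sca-1 and c-Kit (LSK cells, the compartment of stem cells and multipotent progenitors) were sorted, tagged with barcoded surface antibodies and 1 hashtag antibody per condition, and mixed into 1 droplet loading for RNA and tag sequencing. The sources used here do not give the strain or the number of mice in a pool. Each condition is thus 1 pool of cells with no replicate, no test across animals was possible, and every interval given is a 95% interval that covers counting error only. Cells with Xist and cells with Y-linked transcripts were present in both pools, so each pool holds both sexes.

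The chelator pool had 3998 cells after filtering, with a median of 14456 UMIs per cell, and the control pool had 3969 with a median of 13705. Mitochondrially encoded RNA took a median of 2.08% of UMIs in both pools. The LSK genes Kit, Ly6a and Cd34 together gave 787 CPM (UMIs scaled to 1000000 gene UMIs) in the chelator pool and 798 CPM in the control pool. Cells were also gated by the surface tags CD135, CD48 and CD150, which involves no RNA. The HSC gate (CD150 alone) held 1310 chelator and 1161 control cells, and the MPP4 gate (CD135 without CD150) held 1293 chelator and 1510 control cells. The MPP1 gate (none of the 3 tags), the MPP2 gate (CD48 and CD150) and the MPP3 gate (CD48 alone) held 562, 100 and 611 chelator cells and 548, 92 and 502 control cells. CD135 was the least separated tag, with 22.1% of cells within 0.25 units of its threshold on the centred log scale. All 11 stem cell marker genes were higher in the HSC gate than in the MPP4 gate, with a sum of 1941 against 563 CPM in the chelator pool and 2006 against 594 CPM in the control pool. All 7 lymphoid-priming genes were lower there, with 42.0 against 1240 CPM in the chelator pool and 36 against 1185 CPM in the control pool.

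Shown for 6 members as examples of both directions, the 120 bases before the transcription start of each are given with the elements they hold. Ndufa4, Cox5a, Sdhb and Uqcrfs1 had lower levels in the HSC gate than in the MPP4 gate and higher levels in cells with many cell cycle transcripts, whereas Cox7a2l and Uqcrh went the other way in both. The sequences are from RefSeq on GRCm38.p6, 5′ to 3′ on the strand of the gene, and capitals mark a match, on either strand, to the core letters searched for NRF1 (GCGCATGC), ETS factors including GABP (CCGGAAG), YY1 (AAGATGGC) or SP1 (GGGCGG).
Ndufa4 (chr6:11907451-11907570, minus strand): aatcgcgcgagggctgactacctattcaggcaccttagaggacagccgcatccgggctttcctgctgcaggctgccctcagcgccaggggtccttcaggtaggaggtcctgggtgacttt
Cox5a (chr9:57521112-57521231, plus strand): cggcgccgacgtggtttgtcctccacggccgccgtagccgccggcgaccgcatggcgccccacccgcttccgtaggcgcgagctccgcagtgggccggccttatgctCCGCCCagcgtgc
Sdhb (chr4:140961151-140961270, plus strand): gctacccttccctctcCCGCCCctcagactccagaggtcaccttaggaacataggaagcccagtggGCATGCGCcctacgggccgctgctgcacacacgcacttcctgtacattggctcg
Uqcrfs1 (chr13:30545317-30545436, minus strand): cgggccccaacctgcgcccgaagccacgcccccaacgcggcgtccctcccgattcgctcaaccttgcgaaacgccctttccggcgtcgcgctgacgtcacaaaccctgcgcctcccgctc
Cox7a2l (chr17:83514334-83514453, minus strand): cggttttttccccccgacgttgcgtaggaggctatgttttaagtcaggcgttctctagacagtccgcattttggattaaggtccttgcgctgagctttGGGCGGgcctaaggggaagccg
Uqcrh (chr4:116075071-116075190, minus strand): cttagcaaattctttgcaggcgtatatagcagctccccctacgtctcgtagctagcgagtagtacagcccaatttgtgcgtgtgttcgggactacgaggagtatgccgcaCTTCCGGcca
Sdhb holds 1 NRF1 and 1 SP1 match in this stretch, Cox5a and Cox7a2l an SP1 match and Uqcrh an ETS match, and Ndufa4 and Uqcrfs1 hold none of the 4 in these letters.

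Windows of 250 bases before to 50 after the start were matched for 78 members and compared with those of 17492 protein-coding genes. The NRF1 letters occurred in 12 member windows (15.4%), against 3.61% of all windows. The ETS letters occurred in 21 (26.9%), against 11.9%, and the YY1 letters in 10 (12.8%), against 3.22%. SP1 letters occurred in 38 (48.7%), against 46.3%, and TATAAA in 7 (8.97%), against 13.3%. Matches to different motifs overlapped in 1 window, where an ETS match overlapped an SP1 match. These matches are descriptions of letters and not of bound sites. The median log2 ratio of the HSC gate over the MPP4 gate was -0.12 in the chelator pool and -0.17 in the control pool for the 12 members with NRF1 letters, and -0.15 and -0.16 in those pools for the 41 with none of the NRF1, ETS and YY1 letters. It was -0.11 with chelator and -0.15 in controls with ETS letters and -0.17 and -0.15 with YY1 letters. It was nearer to 0 for the 38 with SP1 letters, at -0.056 and -0.14, and the 7 with TATAAA, at -0.014 and -0.089, and -0.13 and -0.16 for all 78.

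Between the treatment groups the nuclear genes of oxidative phosphorylation had nearly the same level. Together they made up 2.23% of gene UMIs in the chelator pool and 2.20% in the control pool, a log2 ratio of 0.019 (0.015 to 0.022). Of the 93 members 68 were above and 25 below a ratio of 1, with a median log2 ratio of 0.016, while 7305 of 14869 genes with at least 50 UMIs were above 1 and the median of all these genes was -0.0015. The difference between 2 mouse pools cannot be told apart from a difference between the mice that went into them. With a log2 ratio of 0.32 either way used as the size that counts a gene as higher or lower, 1 member was higher with chelator, Cox6a2, and 0 were lower. Of all genes with at least 50 UMIs 4.22% were higher and 4.06% lower by that size, and of those with at least 1000 UMIs 0.437% were higher and 0.508% lower. The count of 1 is 1.08% of the 93 members and 1.1% of the 91 with at least 1000 UMIs. Without Cox6a2 the other 92 members lay between log2 ratios of -0.12 and 0.091. The interval lay above 0 for 20 members and below 0 for 0. All 20 had at least 1000 UMIs, which makes 22% of the 91 members with that many, and of all such genes 10.8% had intervals above and 10.6% below 0. The 13 protein genes of mitochondrial DNA had a summed log2 ratio of 0.0030.

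The small shift was found in all 5 complexes. In complex I, the NADH dehydrogenase, 31 of 44 members were above 1 and the median log2 ratio was 0.019. Ndufs4, an accessory subunit of the NADH-oxidising arm, had 117 CPM in the chelator pool and 111 CPM in the control pool, a log2 ratio of 0.069 (0.022 to 0.12). The assembly factor Ndufaf3 had 32.9 CPM with chelator and 31.3 CPM in controls, with an interval that includes 0. At the other end stood further assembly factors, Ndufaf4 with 44.0 against 45.6 CPM and Ndufaf5 with 15.6 against 16.0 CPM, chelator pool first, and their intervals also include 0. In complex II, succinate dehydrogenase, 5 of 8 members were above 1 and the median was 0.015. Its ends were again assembly factors. Sdhaf4, which protects the flavinated subunit before assembly, had 55.5 CPM with chelator and 52.5 CPM in controls, a log2 ratio of 0.080 (0.012 to 0.15). Sdhaf1, which helps load iron-sulfur clusters into the complex, stood at 0.059 (-0.022 to 0.14). Sdhaf2, which helps attach flavin, had a log2 ratio of -0.073 (-0.16 to 0.014), and Sdhaf3 had -0.080 (-0.21 to 0.049). In complex III 6 of 8 members were above 1 and the median was 0.013, from Uqcr11 at 0.037 (0.0081 to 0.066) and Uqcrq at 0.018 to Uqcrc2, a large matrix-side subunit, at -0.011 and the hinge protein Uqcrh at -0.014.

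In complex IV, cytochrome c oxidase, 13 of 16 members were above 1, the median was 0.023, and 8 of the 20 intervals above 0 belonged to it. Ndufa4, a subunit first assigned to complex I, had 742 CPM in the chelator pool and 713 CPM in the control pool, a log2 ratio of 0.058 (0.040 to 0.077). Cox6b2, an isoform known mainly from testis, had 55.3 CPM with chelator and 51.9 CPM in controls, a log2 ratio of 0.091 (0.023 to 0.16). Cox7a2l, a factor that joins complexes III and IV into supercomplexes, stood at -0.0070 (-0.037 to 0.023), and the structural subunit Cox7c at -0.0041. In complex V, ATP synthase, 13 of 17 were above 1 and the median was 0.014. The small proteolipid Atp5mpl had 339 CPM with chelator and 326 CPM in controls, a log2 ratio of 0.058 (0.031 to 0.086). The 3 genes for the same c subunit of the rotor had different ratios, with Atp5g2 at 0.032 (0.015 to 0.050), Atp5g3 at 0.0092 (-0.011 to 0.029) and Atp5g1 at -0.022 (-0.053 to 0.0083).

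The members that bind iron-sulfur clusters or haem were level between the pools. Of the 9, 6 were above 1, with a median of 0.0049 and a summed log2 ratio of 0.012 (-0.0023 to 0.027). That interval also includes the summed ratio of all members, so the 9 were not separated from the list as a whole. Of the 67 other subunits that are neither assembly factors, restricted isoforms nor the supercomplex factor, 55 were above 1 with a median of 0.018. Ndufs1, which carries several clusters in complex I, had 43.7 CPM with chelator and 44.4 CPM in controls. Sdhb, the iron-sulfur subunit of complex II, had 162 CPM with chelator and 163 CPM in controls, and Uqcrfs1, the Rieske protein of complex III, had 165 CPM with chelator and 164 CPM in controls. None of these 3 was separated between the pools beyond counting error. The highest of the 9 was Ndufv2, at 178 CPM with chelator and 174 CPM in controls and a log2 ratio of 0.039. Among the roles, 18 of 24 core subunits were above 1 with a median of 0.011, 43 of 52 accessory subunits with 0.021 and 4 of 12 assembly factors with -0.020.

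**Figure D1:**
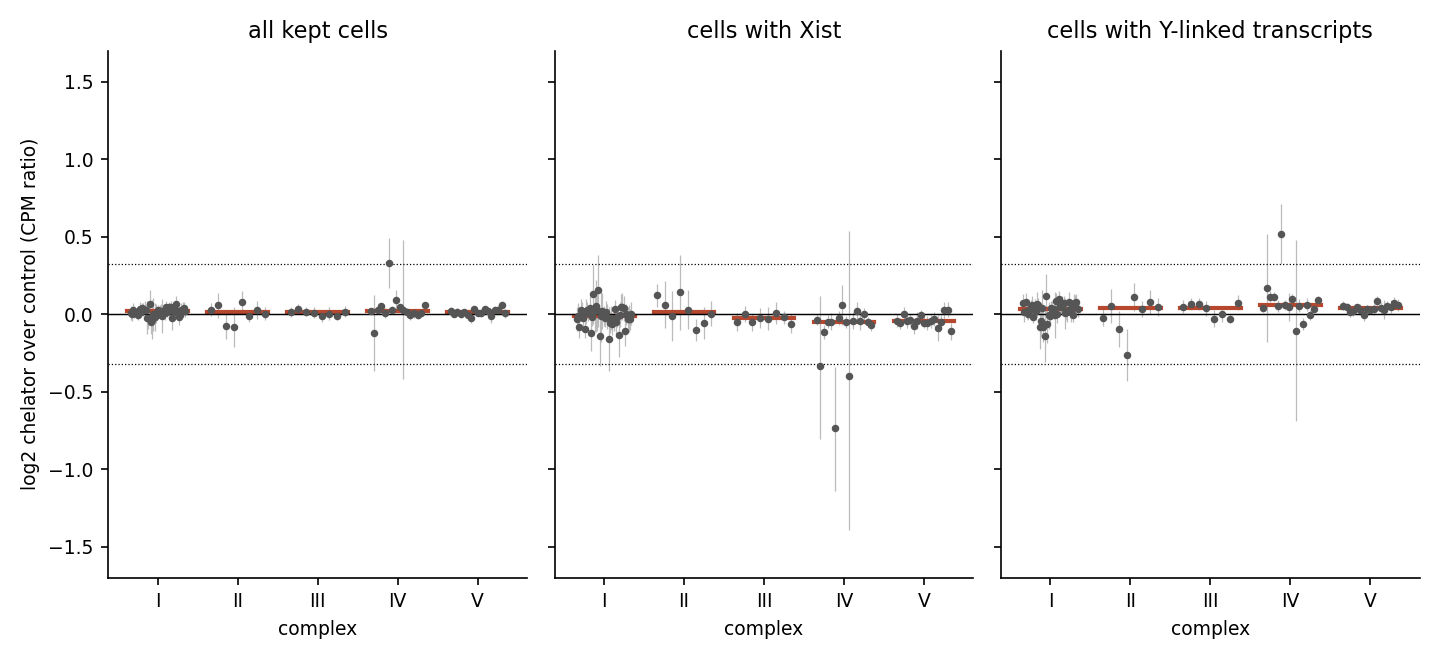
Points are the log2 ratio of chelator over control for each of the 93 members, by complex, with no UMI minimum within a panel. Panels show all kept cells (left), Xist cells (middle) and cells with Y-linked transcripts (right). Grey lines are 95% counting intervals, red bars the medians of a complex and dotted lines log2 ratios of 0.32 either way, and the list median was 0.016 in all cells, -0.025 in Xist cells and 0.043 in the cells with Y-linked transcripts.

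Summed over all cells of a sex, the direction of the shift was opposite in Xist cells and in those with Y-linked transcripts. In cells with Xist the members took 2.23% of gene UMIs in the chelator pool and 2.27% in the control pool, a summed log2 ratio of -0.030 (-0.036 to -0.024). In cells with Y-linked transcripts they took 2.25% with chelator and 2.18% in controls, a log2 ratio of 0.043. With Xist 30 of the 92 members with at least 50 UMIs in those cells were above 1 (32.6%). In the Y-linked group 74 of 93 members were above 1 (79.6%). At the same minimum 50.1% of all genes were above 1 in Xist cells, and 44.7% in the Y-linked group. The pooled ratio also mixes the sexes unevenly, since Xist cells were 26.1% of sexed cells in the chelator pool and 42.1% in the control pool. With both sexes weighted equally the median log2 ratio was 0.0060. By the size of 0.32 0 of 92 members were higher and 2 lower in Xist cells, where 7.03% of all genes were higher and 4.51% lower. In cells with Y-linked transcripts 1 of 93 was higher and 0 were lower, where 3.85% of all genes were higher and 4.67% lower. For 14 of 93 members the intervals lay on opposite sides of 0, and all 14 were below with Xist. With at least 1000 UMIs in each sex 13 of 85 members (15.3%) lay below with Xist and above with Y-linked transcripts and 0 the other way, against 4.4% and 2.27% of genes. Cox5a, a subunit of complex IV, had 373 CPM in the chelator pool and 404 CPM in the control pool in Xist cells, and 381 CPM in the chelator pool and 352 CPM in the control pool with Y-linked transcripts.

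Other features of the pools differed as well. The 35 cell cycle genes had a summed log2 ratio of -0.079 in Xist cells and 0.13 in cells with Y-linked transcripts, where all 35 were higher with chelator. The HSC gate held 33.4% of Xist cells in the chelator pool and 23.9% in the control pool, but 31.9% of cells with Y-linked transcripts in the chelator pool and 31.2% in the control pool. The 13 mitochondrially encoded protein genes went the other way, with log2 ratios of 0.073 in Xist cells, where all 13 were higher with chelator, and -0.054 in cells with Y-linked transcripts. The 9 erythroid genes, none at 0, summed to 146 CPM in the chelator pool and 429 CPM in the control pool, and 0 of 9 were higher with chelator. In Xist cells they summed to 188 CPM with chelator and 818 CPM in controls, and 4 of 9 were higher with chelator. In cells with Y-linked transcripts the sums were 136 CPM and 189 CPM, and 2 of 9 were higher. The MPP4 gate had 97.7 CPM of these genes with chelator and 762 CPM in controls, and the HSC gate 116 CPM and 102 CPM. The 5 genes of the handling response summed to 1189 CPM with chelator and 983 CPM in controls, but to 880 CPM against 1126 CPM in Xist cells and 1260 CPM against 828 CPM in cells with Y-linked transcripts, chelator pool first. Over all cells Fos stood at a log2 ratio of 0.58 and Egr1 at 0.53, whereas Hspa1a stood at -2.10 and Hspa1b at -2.27. Markers of mature cells differed less, with sums of 191 CPM with chelator and 199 CPM in controls for T or NK cells, 35.5 against 39.9 CPM for B cells and 213 against 207 CPM for mature myeloid cells, chelator pool first. The part of these features in the members' ratios was not tested.

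Within every surface gate the summed level was slightly higher with chelator, with log2 ratios of 0.021 in the HSC gate, 0.037 in MPP1, 0.021 in MPP2, 0.021 in MPP3 and 0.022 in MPP4. The sexes were again opposed within the HSC gate, at 2.03% with chelator and 2.07% in controls for Xist cells and 2.06% with chelator and 2.0% in controls for cells with Y-linked transcripts. They were opposed in the MPP4 gate as well, at 2.28% against 2.34% for Xist cells and 2.32% against 2.23% for cells with Y-linked transcripts, chelator pool first. In the other gates it was different. In the MPP1 gate the order was turned, with 2.21% against 2.07% for Xist cells and 2.12% against 2.17% for cells with Y-linked transcripts. In the MPP2 gate the values were 2.44% against 2.43% and 2.51% against 2.52% for those groups, within counting error. In the MPP3 gate both sexes were higher with chelator, at 2.4% against 2.39% for Xist cells, within counting error, and 2.42% against 2.39% for cells with Y-linked transcripts. The opposition in the direction seen over all cells was thus present in 2 of 5 gates, HSC and MPP4, and the MPP1 gate had the reverse. Across 4 bins of cells by cell cycle transcripts, from lowest to highest, the log2 ratios of chelator over control were 0.019, 0.0037, 0.041 and -0.019. Over the same bins they were -0.027, -0.033, 0.047 (0.035 to 0.058) and -0.048 in Xist cells and 0.016, 0.024, 0.056 and -0.0011 (-0.0081 to 0.0060) in cells with Y-linked transcripts. Both sexes were thus higher with chelator in the third bin.

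The nuclear genes were lower in the HSC gate than in the MPP4 gate in both pools, while the genes of mitochondrial DNA were higher. Members made up 2.04% of gene UMIs in HSC-gate cells and 2.31% in MPP4-gate cells of the chelator pool, and 2.01% and 2.27% in the same gates of the control pool. The summed log2 ratios of the HSC gate over the MPP4 gate were -0.18 (-0.18 to -0.17) with chelator and -0.17 in controls. In the chelator pool 72 of 93 members were below 1, with a median log2 ratio of -0.14, and in the control pool 68 were below 1, with a median of -0.16. Over all genes with at least 50 UMIs the medians were 0.029 with chelator and 0.016 in controls, and over those with at least 1000 UMIs, where 85 members lie, they were -0.058 and -0.068. Relative to the medians over 1000 UMIs the members stood at -0.081 with chelator and -0.092 in controls. The interval lay below 0 in both pools for 59 members and above 0 in both for 8. With at least 1000 UMIs in each pool these were 57 and 7 of 85 members (67.1% and 8.24%), against 38.5% and 25.7% of genes. The shares past the size of 0.32 were no higher than among other genes. In the chelator pool 14 members were lower and 2 higher by that size, 15.1% and 2.15%, against 21.1% and 29.2% of all genes. In the control pool 18 were lower and 1 higher, 19.4% and 1.08%, against 21.1% and 27.7% of all genes. Among members with at least 1000 UMIs in both gates together, 12 of 85 were lower and 1 higher in the chelator pool, against 21.5% and 15.9% of genes, and 16 of 85 were lower and 0 higher in the control pool, against 21.5% and 14.5% of genes.

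Levels are shares of a cell's RNA, and HSC-gate cells also held less RNA in all. They held 302 member UMIs and 14800 UMIs in total per cell with chelator, against 417 and 18070 in MPP4-gate cells of that pool. In controls they held 286 member UMIs and 14210 in total, against 381 and 16740 in MPP4-gate cells. Over all 5 gates the order was the same in both pools. It ran from MPP2 with 2.43% with chelator and 2.40% in controls, over MPP3 with 2.41% and 2.37%, MPP4 with 2.31% and 2.27% and MPP1 with 2.14% and 2.09%, to the HSC gate. MPP2 and MPP3 were not separated beyond counting error, whereas the other neighbours were. The protein genes of mitochondrial DNA ran in the reverse order, from the HSC gate with 2.31% with chelator and 2.36% in controls to MPP2 with 1.72% and 1.73%. Their summed log2 ratio of the HSC gate over the MPP4 gate was 0.29 with chelator and 0.30 in controls, with 11 of 13 genes above 1 in each pool. Cytosolic ribosomal protein genes had 0.093 and 0.090 in these pools.

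**Figure D2:**
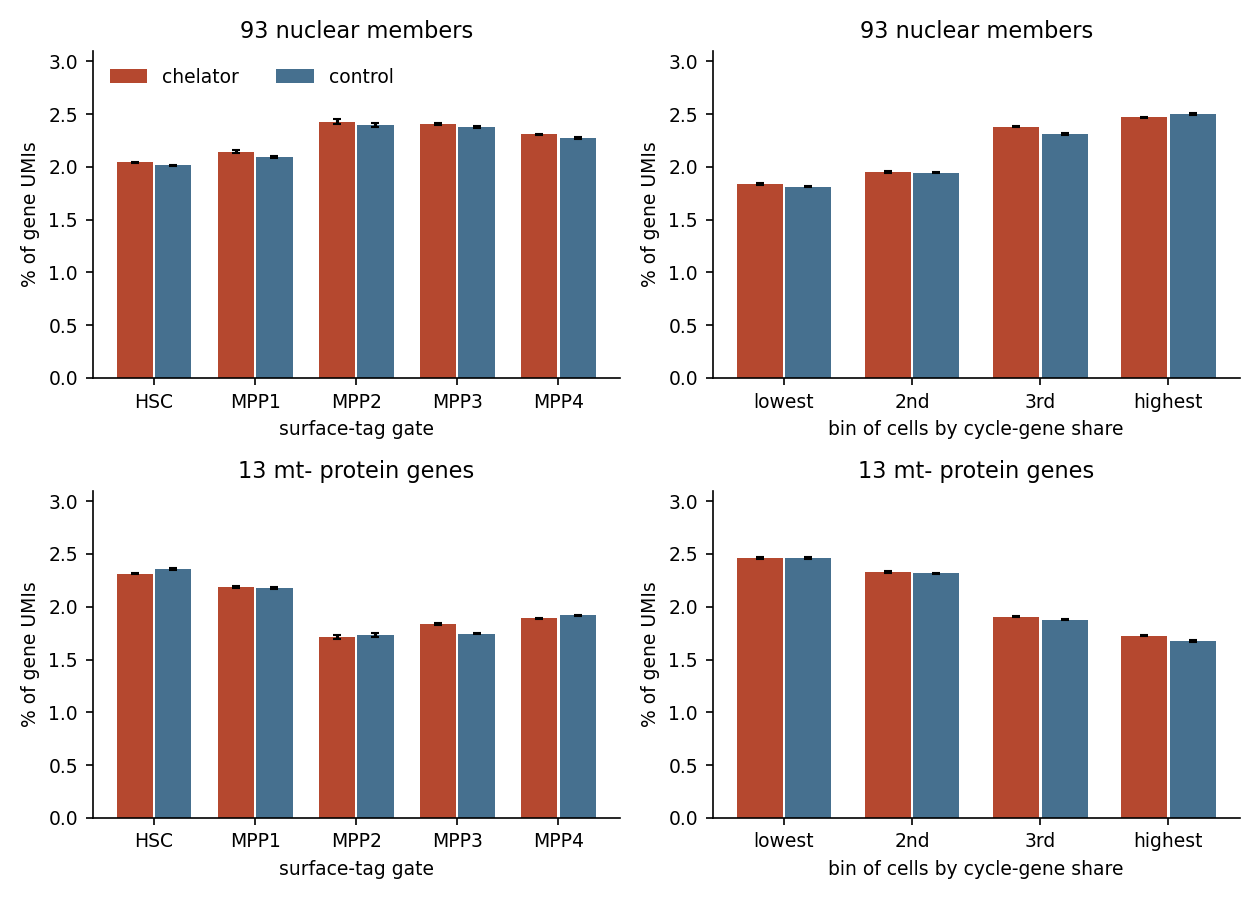
Bars are the share of gene UMIs taken by the 93 nuclear members (top) and by the 13 mitochondrially encoded protein genes (bottom), by surface-tag gate (left) and by bin of cells ordered by cell cycle transcripts (right), for the chelator and control pools, with 95% counting intervals. Nuclear members were at 2.04% with chelator and 2.01% in controls in the HSC gate and at 2.31% with chelator and 2.27% in controls in the MPP4 gate, and the mitochondrially encoded genes ran the opposite way.

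Complex IV held the members with the largest contrast between these gates. Ndufa4 had 457 CPM in HSC-gate cells and 919 CPM in MPP4-gate cells with chelator, a log2 ratio of -1.01 (-1.04 to -0.97), and 456 CPM and 868 CPM in the same gates of the control pool, a log2 ratio of -0.93 (-0.97 to -0.89). Across all gates its level was lowest in the HSC gate, then MPP1 at 601 CPM with chelator and 552 CPM in controls, then MPP2, MPP4 and MPP3, and MPP3 reached 975 CPM with chelator and 890 CPM in controls. Cox5a had 276 CPM in HSC-gate cells and 437 CPM in MPP4-gate cells with chelator, a log2 ratio of -0.66 (-0.71 to -0.62), and 271 CPM against 418 CPM in controls, a log2 ratio of -0.63 (-0.68 to -0.58). Both contrasts were present in either sex, with Ndufa4 at -0.92 with chelator and -0.79 in controls in Xist cells and at -1.03 and -1.02 in cells with Y-linked transcripts. The complex IV median was -0.15 with chelator and -0.14 in controls.

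Iron-sulfur subunits of complexes II and III were lower as well. Sdhb had 128 CPM in HSC-gate cells and 182 CPM in MPP4-gate cells with chelator and 134 CPM against 182 CPM in controls, with log2 ratios of -0.51 (-0.59 to -0.44) and -0.44 (-0.51 to -0.37). The membrane anchors of complex II, which hold its haem, followed, with Sdhd at -0.32 with chelator and -0.28 in controls and Sdhc at -0.28 in both. Uqcrfs1 had 133 CPM in HSC-gate cells and 180 CPM in MPP4-gate cells with chelator and 132 CPM against 183 CPM in controls, with log2 ratios of -0.44 (-0.51 to -0.37) and -0.48 (-0.55 to -0.40). Of the 9 iron-sulfur or haem subunits 8 were below 1 in both pools, with medians of -0.28 with chelator and -0.25 in controls. Ndufs7, the complex I subunit whose cluster lies next to the quinone site, was the exception at 0.055 and 0.034. Over all core subunits 21 of 24 were below 1 in each pool. In complex V 15 of 17 were below 1 in both pools, with medians of -0.19 with chelator and -0.17 in controls, and Atp5o, the stalk subunit that ties the catalytic head to the stator, stood at -0.38 and -0.42. In complex I, with medians of -0.11 and -0.14, the accessory subunits Ndufb7 and Ndufb8 stood at -0.39 with chelator and -0.35 and -0.36 in controls.

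Assembly factors were not lower as a group in the HSC gate. Of the 12, 7 were above 1 with chelator and 8 in controls, with medians of 0.11 and 0.047. Among all genes with at least 50 UMIs 52.9% were above 1 with chelator and 51.7% in controls. Sdhaf1 had 46.5 CPM in HSC-gate cells and 36.9 CPM in MPP4-gate cells with chelator, a log2 ratio of 0.33 (0.19 to 0.47), and 41.1 CPM against 34.8 CPM in controls, a log2 ratio of 0.24 (0.091 to 0.38). Sdhaf4 had 62.2 CPM against 51.9 CPM with chelator and 57.3 CPM against 49.9 CPM in controls, HSC gate first. Within complex II Sdhaf1 and Sdhaf4 thus lay above 1 and Sdhb, Sdhc and Sdhd below it, and the complex's median was 0.060 with chelator and 0.052 in controls. Ndufaf6, an assembly factor of complex I, went with the subunits at -0.47 (-0.66 to -0.27) and -0.34 (-0.54 to -0.15). The 8 members whose intervals lay above 0 in both pools were Sdhaf1, Sdhaf2, Sdhaf4, Uqcrh, Cox7a2l, Cox4i2, Ndufb9 and Ndufv3. Cox7a2l had 310 CPM in HSC-gate cells and 266 CPM in MPP4-gate cells with chelator and 322 CPM against 267 CPM in controls, with log2 ratios of 0.22 (0.17 to 0.27) and 0.27 (0.22 to 0.32). Uqcrh had 560 CPM against 504 CPM with chelator and 567 CPM against 510 CPM in controls, and a log2 ratio of 0.15 in each pool.

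**Figure D3:**
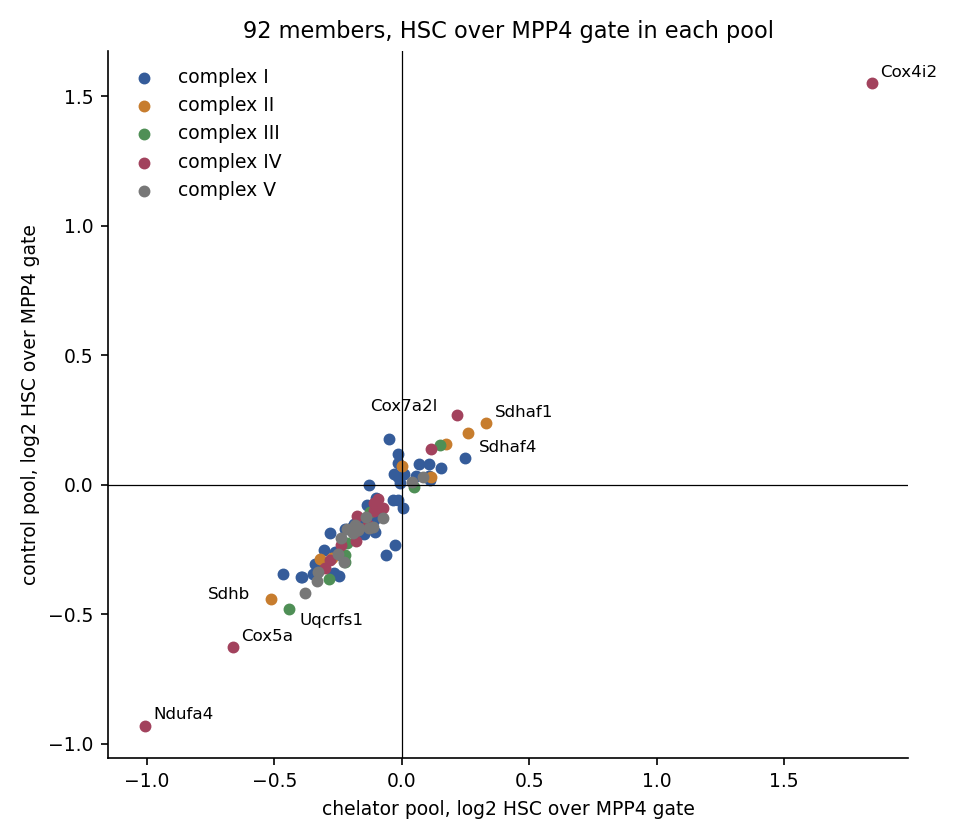
Each point is a member, with the log2 ratio of the HSC gate over the MPP4 gate in the chelator pool on the horizontal axis and in the control pool on the vertical axis, coloured by complex. Cox6a2, with 0 UMIs in the HSC gate of the control pool, is left out, and 84 of the 92 members shown have the same sign in both pools.

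Of the 4 isoforms with a restricted tissue distribution, Cox6a2 and Cox4i2 had the widest gate contrasts of all members, and Cox6b2 and Cox7a1 did not. Cox6a2, on chromosome 7 at 128205435-128206366, encodes the heart and muscle form of a complex IV subunit, and Cox6a1 the general form. Its UMIs lay almost entirely in the MPP4 gate, which held 91.7% of them with chelator and 91.8% in controls. In the chelator pool it had 2 UMIs in the HSC gate, 1 in MPP1, 2 in MPP2, 35 in MPP3 and 695 in MPP4. In the control pool it had 0, 6, 18, 23 and 526 UMIs in those gates, and 12 of the 18 in MPP2 came from 1 cell. The level in MPP4-gate cells was 29.8 CPM (27.6 to 32.1) with chelator and 20.8 CPM (19.1 to 22.7) in controls. The log2 ratio of the HSC gate over the MPP4 gate was -8.17 (-11.2 to -6.31) with chelator, and in controls the level was at least 114-fold lower in the HSC gate, computed against a floor of 3 UMIs over the gate. The part of free RNA in the droplets in these counts was not tested. With chelator the share of cells with a Cox6a2 UMI was 0.153% (0.018 to 0.55) in the HSC gate and 11.4% (9.76 to 13.3) in the MPP4 gate. Median depths in those gates were 13300 and 16500 UMIs per cell. In controls the share was 0 of 1161 cells in the HSC gate and 9.21% in the MPP4 gate, at median depths of 12690 and 14510. After thinning every cell to 5000 UMIs the shares in the MPP4 gate were 6.23% with chelator and 4.98% in controls, and 0% in both HSC gates.

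The difference of Cox6a2 between the pools, 758 UMIs with chelator and 573 in controls, or 11.4 CPM and 9.06 CPM with a log2 ratio of 0.33 (0.17 to 0.49), rested on 168 and 150 cells. It was 0.17 with every cell weighted equally, 0.20 after thinning, 0.11 with the sexes and 0.056 with the gates weighted equally. Within the MPP4 gate it was opposite in cells of either sex. Xist cells of that gate had 14.7 CPM with chelator and 18.1 CPM in controls, and cells with Y-linked transcripts had 36.7 CPM with chelator and 23.8 CPM in controls. Of the cells with a Cox6a2 UMI 21 had Xist and 133 Y-linked transcripts in the chelator pool, and 66 had Xist and 76 Y-linked transcripts in the control pool. The MPP4-gate cells with a Cox6a2 UMI also had higher levels of lymphoid genes, which cells without it expressed too, with Dntt UMIs in 95.3% of cells with Cox6a2 and 46.8% without it in the chelator pool and 92.1% and 42.4% in the control pool. Il7r, the interleukin-7 receptor chain of lymphoid progenitors, had 67.2 CPM in cells with Cox6a2 and 1.98 CPM in cells without it in the chelator pool, a log2 ratio of 5.08 (4.59 to 5.61). In the control pool it had 70.0 CPM with and 2.64 CPM without Cox6a2. Dntt, which adds bases at antigen receptor joins, stood at log2 ratios of 2.43 with chelator and 2.6 in controls, Notch1 at 1.31 and 1.40, and the stem cell gene Mecom at -2.24 and -2.66. Smaller ratios were found for Cd52 and Wfdc17, at 0.27 and 0.25 with chelator and 0.36 and 0.39 in controls. The granulocyte-monocyte gene Mpo was higher with Cox6a2 in both pools, at 0.74 and 0.78, while Elane stood at 1.84 with chelator and -1.04 in controls. Few cells held Elane UMIs, and their share was higher with Cox6a2 in both pools. It was 7.43% with and 4.63% without Cox6a2 in the chelator pool, and 8.63% and 3.50% in the control pool. Cells with a Cox6a2 UMI were deeper, with a median of 24170 against 15530 UMIs with chelator and 21820 against 13950 in controls, and the part of depth was not tested. Their surface tags differed too, with CD62L higher by 1.2 units with chelator and in controls and CD49b lower, at -1.47 and -1.3, in units of the centred log ratio.

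Cox4i2, on chromosome 2 at 152753916-152765039, encodes the form of complex IV subunit 4 known from lung and low oxygen, and went the opposite way. It had 140 UMIs in the HSC gate and 47 in the MPP4 gate with chelator, or 7.22 CPM (6.08 to 8.52) and 2.01 CPM (1.48 to 2.68), a log2 ratio of 1.84 (1.36 to 2.35). In controls it had 130 and 68 UMIs in those gates, or 7.88 CPM and 2.69 CPM, a log2 ratio of 1.55 (1.12 to 2.0). The ratio was 1.97 with chelator and 1.76 in controls in Xist cells and 1.97 and 1.29 in cells with Y-linked transcripts. Of HSC-gate cells 8.93% with chelator and 9.48% in controls had a Cox4i2 UMI, against 3.40% and 3.71% of MPP4-gate cells. After thinning to 5000 UMIs these shares were 2.91% and 3.82% of HSC-gate cells, against 0.959% and 1.04% of MPP4-gate cells. The control MPP2 gate also stood at 7.08 CPM, but 10 of its 15 UMIs came from 1 cell. Cox4i1, the general form, had a log2 ratio of the HSC gate over the MPP4 gate of -0.071 with chelator and -0.089 in controls. Cox6b2 was 0.11 and 0.14, with Cox6b1 at -0.11 and -0.10. Cox7a1, the muscle form, had 89 UMIs in the chelator pool and 83 in the control pool, too few to separate gates.

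**Figure D4:**
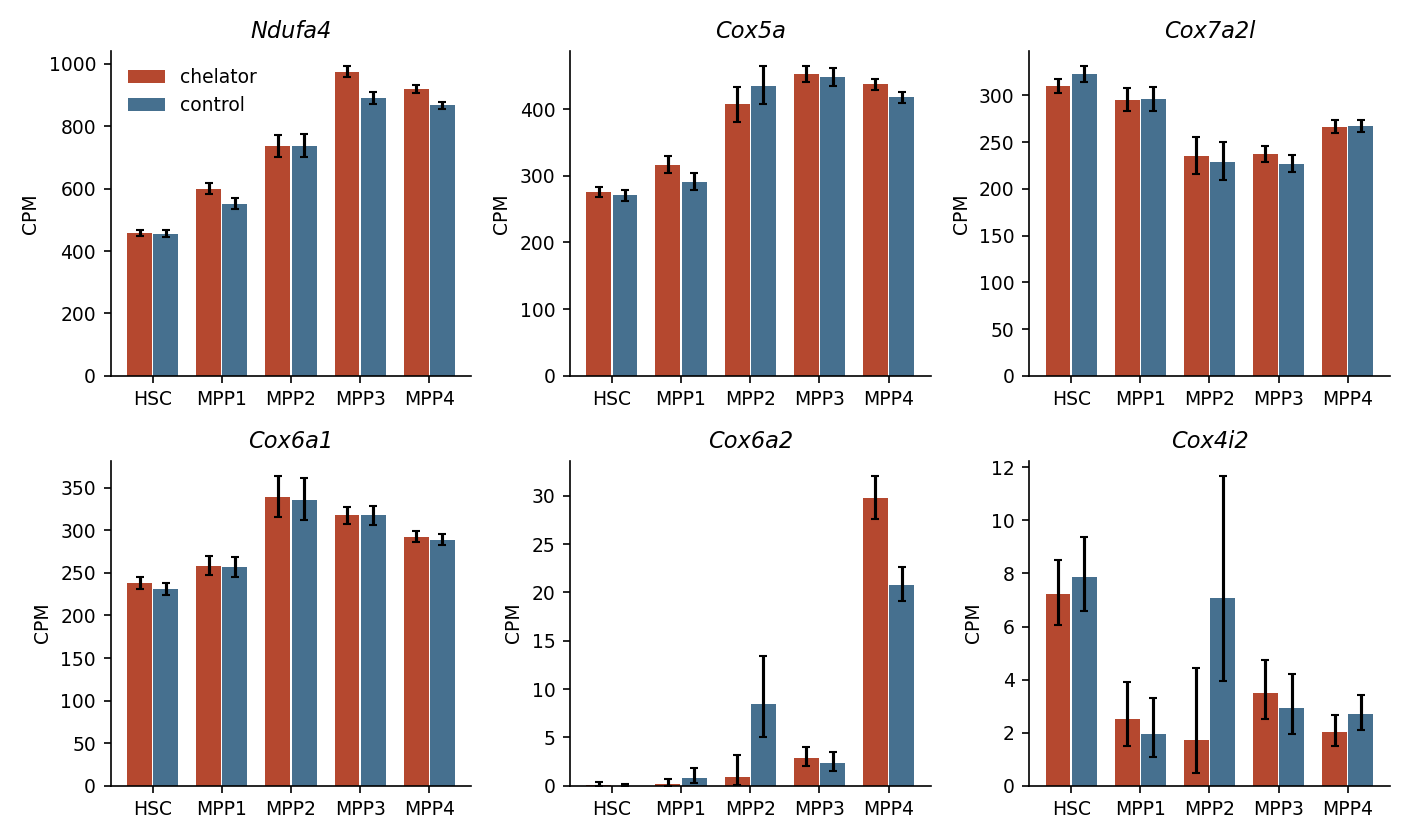
Levels in CPM of 6 members in each surface-tag gate, for the chelator and control pools, with 95% counting intervals and a scale of its own per gene. Ndufa4 and Cox5a are lowest in the HSC gate, Cox7a2l is highest there, Cox6a2 is nearly confined to the MPP4 gate with 695 UMIs with chelator and 526 in controls, and Cox4i2 is higher in the HSC gate than in the MPP4 gate.

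Members were higher in cells with more cell cycle transcripts, and the genes of mitochondrial DNA were lower. Cells were ordered by the share of UMIs from 35 genes of S phase, G2 and mitosis after thinning to 5000 UMIs, and cut into 4 bins at shares of 0.04%, 0.12% and 0.44%. In rising order the bins held 1095, 855, 907 and 1003 chelator cells and 1145, 884, 900 and 881 control cells. From the lowest to the highest bin the members took 1.84%, 1.95%, 2.38% and 2.47% of gene UMIs with chelator and 1.81%, 1.95%, 2.31% and 2.50% in controls. The mitochondrially encoded genes took 2.46%, 2.33%, 1.91% and 1.73% with chelator and 2.47%, 2.32%, 1.88% and 1.68% in controls over the same bins. In the highest over the lowest bin 83 of 93 members were above 1 with chelator and 84 in controls, with median log2 ratios of 0.40 and 0.44. Genes with at least 1000 UMIs had medians of 0.10 and 0.13 in this contrast, and relative to those the members stood at 0.29 and 0.31. By the size of 0.32 61 members (65.6%) were higher and 4 (4.3%) lower with chelator, against 25.9% and 33.7% of all genes, and 65 (69.9%) were higher and 3 (3.23%) lower in controls, against 27.3% and 33.2%. The interval lay above 0 in both pools for 78 members and below 0 in both for 6. With at least 1000 UMIs in each pool these were 76 and 5 of 85 members (89.4% and 5.88%), against 45.7% and 26.6% of genes.

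All 24 core subunits, all 9 iron-sulfur or haem subunits and all 17 members of complex V were higher in the top bin in both pools. Complex medians were 0.36 with chelator and 0.40 in controls for complex I, 0.13 and 0.15 for complex II, 0.46 and 0.53 for complex III, 0.53 and 0.57 for complex IV and 0.43 and 0.45 for complex V. Cox5a had a log2 ratio of 1.12 with chelator and 1.17 in controls, Ndufa4 1.1 in both and Atp5o 0.96 in both. Cox6b2 stood at 0.90 and 1.06, so it was higher both in cycling cells and, by a small amount, in the HSC gate. The assembly factors had medians of 0.065 and 0.037. The 6 members lower in the top bin in both pools beyond counting error were Cox7a2l at -0.61 with chelator and -0.72 in controls, Cox4i2 at -0.53 and -0.60, Uqcrh at -0.45 and -0.46, Sdhaf1 at -0.24 and -0.23, Ndufa6 at -0.19 and -0.23 and Ndufa13 at -0.10 and -0.12. Ndufa6 and Ndufa13 are accessory subunits of complex I. The contrast was present within gates, with medians of 0.45 with chelator and 0.53 in controls in the HSC gate and 0.31 and 0.35 in the MPP4 gate.

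The contrasts by gate and by cell cycle overlapped. HSC-gate cells were in the top bin in 9.84% of cases with chelator and 10.8% in controls, against 33.4% and 29.0% of MPP4-gate cells. Among the cells of the lowest bin the summed log2 ratio of the HSC gate over the MPP4 gate was -0.12 in both pools. Across 92 members the Spearman correlation of the cycle ratio with the gate ratio was -0.75 with chelator and -0.74 in controls, where both ratios come from the same cells and libraries.

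**Figure D5:**
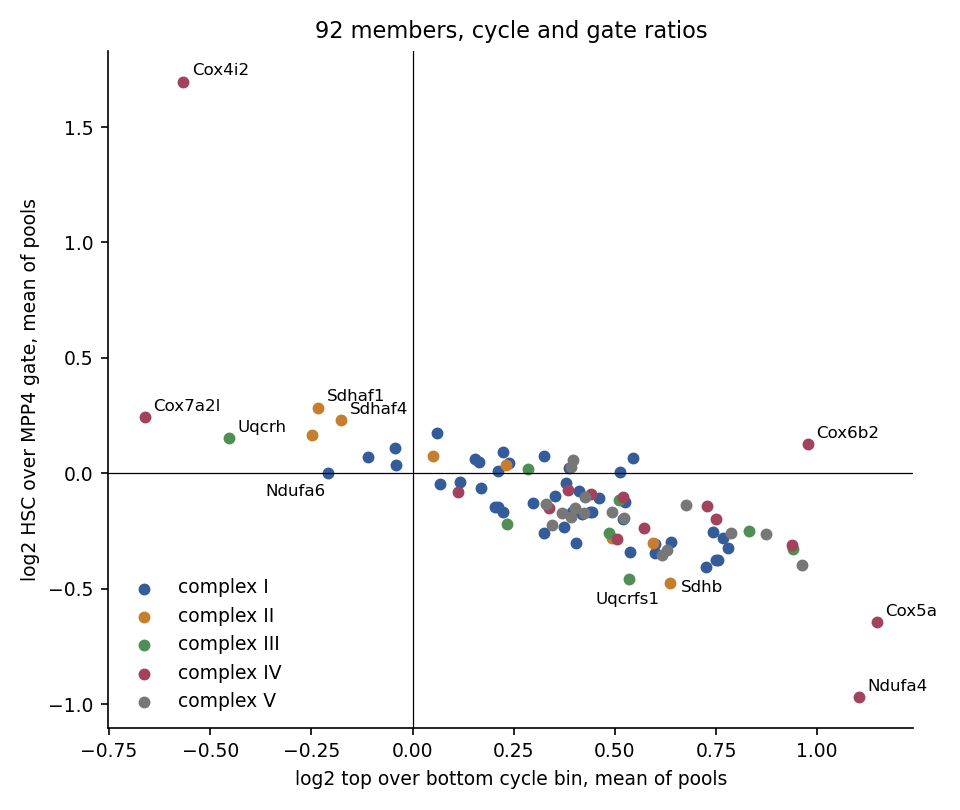
Each point is a member other than Cox6a2, with the log2 ratio of the highest over the lowest cell cycle bin on the horizontal axis and of the HSC gate over the MPP4 gate on the vertical axis, each as the mean of the ratios in both pools, coloured by complex. Ndufa4, Cox5a and Sdhb lie at the lower right, Cox7a2l, Uqcrh, Sdhaf1 and Cox4i2 at the upper left, and the Spearman correlation was -0.75 with chelator and -0.74 in controls.

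In single cells thinned to 5000 UMIs, 3860 with chelator and 3810 in controls, the members took a median of 2.08% of UMIs with chelator and 2.04% in controls. From the 5th to the 95th percentile the share ran from 1.46% to 2.96% with chelator and from 1.44% to 2.94% in controls. In HSC-gate cells the medians were 1.90% and 1.84%, against 2.20% and 2.16% in MPP4-gate cells. Across cells the share had a Spearman correlation of -0.52 with chelator and -0.55 in controls with the share of mitochondrially encoded protein genes, and of 0.53 in both with the share of cell cycle genes. It had 0.45 with chelator and 0.46 in controls with total UMIs before thinning. These shares come from the same cells and libraries and compete within the same 5000 UMIs. Of the surface tags, CD48 had the highest correlation at 0.40 in both pools, followed by CD371 and CD44 at 0.35 each with chelator and 0.31 and 0.33 in controls. CD71, the transferrin receptor that takes up iron, had 0.32 with chelator and 0.27 in controls, and 0.13 and 0.14 in the 2 lower cycle bins. In those bins CD48 had 0.23 with chelator and 0.27 in controls, CD371 0.27 in both and CD44 0.25 and 0.23. Over all cells CD24 had -0.41 and -0.40, CD51 had -0.39 and -0.36, and Sca-1 and CD61 each had -0.36 and -0.34.

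From cell to cell most members had a positive correlation with the rest of the list. The correlation of 1 member with the sum of the others was above 0 for 86 of 93 members with chelator and 85 in controls, with a median of 0.16 in both pools. The same was not computed for other genes. The counts therefore cannot tell whether the members go together more than other genes do. It was highest for Ndufa4 at 0.41 in both pools and for Cox5a at 0.38 in both, and lowest for Cox7a2l at -0.17 with chelator and -0.19 in controls and for Uqcrh at -0.062 and -0.059. In sparse counts low values of this measure depend on a member's level.

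Genes that work with the chain but do not match the naming rule differed in their contrasts between the gates. The electron carriers, Ucp2 and most citric acid cycle enzymes were lower in the HSC gate, while regulators and assembly factors were mixed. Cycs, which encodes cytochrome c, had a log2 ratio of the HSC gate over the MPP4 gate of -0.90 with chelator and -0.93 in controls, and Cyc1, the cytochrome of complex III, had -0.23 and -0.41. Of 13 citric acid cycle enzymes 11 were below 1 in both pools, with medians of -0.23 and -0.25. The uncoupling protein gene Ucp2 stood at -0.94 and -1.04. Of 13 regulators of mitochondrial genes 9 were below 1 with chelator and 8 in controls, and Gabpb1, a subunit of the ETS factor GABP, stood at -0.71 and -0.57 and Nrf1 at -0.42 and -0.22. Of the assembly factors of complex IV outside the list 13 of 17 were above 1 with chelator and 12 of 17 in controls. Of those of complexes I and III outside the list 7 of 15 were above 1 with chelator and 6 of 15 in controls, and Tmem186 stood at -0.39 and -0.30. Among all genes with at least 50 UMIs 52.9% were above 1 with chelator and 51.7% in controls. Between treatments Ucp2 had a log2 ratio of -0.095 (-0.12 to -0.070) and Cycs of -0.065 (-0.098 to -0.032), with 223 CPM in the chelator pool and 233 CPM in the control pool for Cycs, and 5 of 13 citric acid cycle enzymes were above 1.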

How the data were processed

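The authors deposited 1 matrix of raw UMI counts per condition, with genes, surface tags and hashtags, not normalized. The submitters' processing notes name mm10, Seurat 4.3.0 and Cell Ranger 7.0.0, and per the file headers the matrices came from Cell Ranger 7.0.1. How barcodes were filtered and assigned to hashtags, how reads that map to several loci were handled, and the annotation release, were not given in the sources used here. Many of these genes have processed pseudogenes, so counts of single members may be split. The chelator matrix held 4037 barcodes and 66573361 gene UMIs, the control matrix 4026 and 63370466, and 0 barcodes were shared. The hashtag of its own condition was the stronger in 4037 chelator and 4025 control barcodes.

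Cells were kept from 500 genes upward if mitochondrial RNA was below 10% of UMIs. UMIs were summed per pool, gate or cycle bin, divided by total gene UMIs and given as CPM or percent. Intervals are exact (Poisson, conditional binomial for ratios, Clopper-Pearson for shares of cells). Tags were centred log ratios, cut where a mixture of 2 Gaussian components per tag separates them. Cycle bins used cells of at least 5000 UMIs, which left out 138 chelator and 159 control cells. Cells with at least 2 Xist UMIs and no Y-linked UMI, or at least 1 Y-linked and no Xist UMI, were sexed. No doublet caller was run: 52 chelator and 35 control cells with transcripts of both sexes were left in, and taken out as an alternative. Genes needed 50 UMIs in the cells compared.

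Members named were, per complex, the 2 highest and 2 lowest ratios of chelator over control with at least 1000 UMIs, the iron-sulfur and haem subunits, the isoforms, and the 5 highest and 5 lowest gate ratios, 40 in all. Others named (Ndufb7, Ndufb8, Atp5o, Ndufaf6, Ndufa6, Ndufa13, Ndufb9 and Ndufv3 where the rule does not reach them, and the partner genes) were chosen after their values were seen. The members and lists were chosen with earlier results of these data known. The computations were checked on simulated counts that held counting error alone, with no spread between cells or mice. They were repeated with other cell filters, scalings, weightings of cells, sexes and gates, UMI minimums, sizes and tag margins. Promoter sequences and positions are from RefSeq tables of GRCm38.p6. Python 3.11.15, numpy 2.4.6, scipy 1.17.1, pandas 2.3.3, scikit-learn 1.9.0 and matplotlib 3.10.9 were used.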

Additional observations from a re-analysis of the deposited data

Results flagged for a closer look

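The following values had opposite directions of chelator over control in Xist cells and in cells with Y-linked transcripts, with counting intervals that exclude 0 on both sides, and the difference between the sexes was not tested across animals. Each difference is the log2 ratio with Y-linked transcripts minus that with Xist. For the sum of all 93 members it was 0.073, from -0.030 with Xist and 0.043 with Y-linked transcripts. For the 13 mitochondrially encoded protein genes it was -0.13, from 0.073 with Xist and -0.054 with Y-linked transcripts. Among the members named by rule it was 0.083 for Atp5g3, 0.16 for Ndufa4, 1.251 for Cox6a2, 0.074 for Cox4i1, 0.23 for Cox5a and 0.086 for Cox8a. In each of these 6 members the ratio was below 1 with Xist and above 1 with Y-linked transcripts.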

How the results depend on the processing

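The median chelator over control ratio of the members (log2 0.016) was 0.028 with every cell weighted equally, 0.028 with the gates weighted equally, 0.0060 with the sexes weighted equally, -0.025 in Xist cells and 0.043 in cells with Y-linked transcripts. The summed ratio (0.019) was 0.022 when centred on the median gene, 0.030 with cells weighted equally, 0.022 after thinning, 0.024 with gates and 0.0058 with sexes weighted equally, -0.030 with Xist and 0.043 with Y-linked transcripts. Of the 26 named members above 1 in all cells 16 were below 1 in Xist cells, among them Cox6a2 at -0.73. Of the 40 named members 23 moved beyond their counting interval or turned in Xist cells, 15 in cells with Y-linked transcripts, 10 after thinning, 5 with gates, 4 with cells and 4 with sexes weighted equally. The count of members higher by log2 0.32 (1) was 0 in Xist cells, 0 with the sexes weighted equally, 2 with no minimum beyond 1 UMI per pool and 0 at a 1.5-fold size, and the count lower (0) was 3 of all 93 in Xist cells (Cox6a2, Cox4i2 and Cox7a1) and 1 with gates weighted equally.

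The HSC over MPP4 gate median was -0.081 with chelator and -0.092 in controls when centred, and -0.095 with chelator when mitochondrial and ribosomal protein genes were left out of the total. The summed gate ratio was -0.12 with chelator and -0.11 in controls when centred, -0.13 in both without those genes, -0.18 with chelator and -0.19 in controls without cells near a threshold, -0.19 with chelator after thinning, -0.17 with chelator in Xist cells, -0.15 in controls for the Y-linked group, and -0.13 with chelator and -0.14 in controls in the 2 lower cycle bins. The cycle median was 0.29 with chelator and 0.31 in controls when centred, 0.29 and 0.33 without those genes, 0.31 and 0.35 in the MPP4 gate, and 0.53 in controls in the HSC gate. The cause of these moves was not tested. Under the other settings the list values kept their direction and stayed within their spread, and 0 named members moved. No paired analysis was possible because each condition is 1 pool. With 1 pool each, differences between mice set the precision and cannot be measured here.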

Other observations

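Some of the members that went against the rest did so both by gate and by cycle, and both contrasts come from the same cells. Beyond counting error in both pools, Ndufb9 and Ndufv3 did so by gate alone, and Ndufa6 and Ndufa13 by cycle alone. Cox7a2l, Uqcrh, Sdhaf1 and Cox4i2 had intervals above 0 in both pools for the HSC gate over the MPP4 gate and below 0 in both for the highest over the lowest cell cycle bin. In Cox7a2l these log2 ratios were 0.22 with chelator and 0.27 in controls by gate, and -0.61 and -0.72 by cycle. Sdhaf2 and Sdhaf4 were higher in the HSC gate as well, and stood at -0.37 and -0.22 by cycle with chelator and at -0.13 each in controls.

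Among the partner genes of the chain, single assembly factors had higher ratios of chelator over control than 92 of the 93 members, all but Cox6a2, with Cox18 at 0.17, Coa7 at 0.16 and Nubpl, which delivers iron-sulfur clusters to complex I, at 0.17 on the log2 scale. Others were lower than every member, with Tmem186 at -0.19 (-0.32 to -0.049) and Ttc19 at -0.15 (-0.26 to -0.041). Of 13 citric acid cycle enzymes 2 were higher in the HSC gate than in the MPP4 gate in both pools, Suclg2 at 0.28 with chelator and 0.21 in controls and Idh3b at 0.11 and 0.093.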
